A study of Mus musculus with 4 samples.

Results

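Fibroblasts of pancreatic tumours are commonly divided into a contractile, matrix-building myofibroblast state and an inflammatory state that secretes chemokines, complement and acute-phase proteins. The inflammatory state is usually placed further from the tumour cells and is driven by interleukin-1 and JAK-STAT signalling, whereas transforming growth factor beta opposes it. Type I interferon adds a separate programme, in which transcription factors bind interferon-stimulated response elements and switch on antiviral genes, chemokines and MHC class I. The question addressed here was what these inflammatory-type fibroblasts expressed in KPC46 tumours and how they differed between mice given TAK-981 and mice given vehicle.

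TAK-981 (Subasumstat) inhibits the SUMO-activating enzyme, which starts the attachment of the small protein SUMO to other proteins. The 4 single-cell RNA libraries each came from the pancreatic tumour of 1 mouse of strain B6/129 F1J, grown from the KPC46 organoid, a mouse pancreatic cancer line. Tumours of 2 mice treated with TAK-981 were set against tumours of 2 mice given the Cremophor vehicle. The cells were labelled only as tumour, and age, dose, time of treatment and site of implantation were not given in the sources used here. KPC46 is 1 organoid line, so the values describe fibroblasts around that line only.

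Inflammatory-side fibroblasts were chosen by a rule on measured counts of unique molecular identifiers (UMIs, 1 per captured RNA molecule). Cells with fewer than 1000 UMIs, fewer than 250 genes or over 20% mitochondrial UMIs were left out. A fibroblast had to show at least 3 of the fibroblast genes Col1a1, Col1a2, Col3a1, Dcn, Lum and Pdgfra. It also had to have more of the 3 collagens than of Krt8, Krt18 and Krt19 and than of C1qa, C1qb and C1qc, and no UMI of the leukocyte gene Ptprc or the endothelial gene Pecam1. Among these fibroblasts, the inflammatory side was the cells in which the summed UMIs of Cxcl12, Clec3b, Dpt, Ly6c1, C3 and Pi16 exceeded those of Acta2, Tagln, Thy1, Cthrc1, Postn and Tnc. The rule gave 78 cells, of 415 gated fibroblasts and 11527 cells within the limits. Of the other gated fibroblasts, 329 were on the myofibroblast side and 8 had equal sums. Where genes of this rule appear below, they are given as levels or counts of cells, with no test, and not all of them are reported.

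The members were few and uneven. The TAK-981 libraries held 3 and 15 members with 40379 and 180337 UMIs in all, and the vehicle libraries 38 and 22 members with 235291 and 140429 UMIs. In TAK-981 library 1, 1 cell carried 57.4% of the member UMIs, so values of that library rest largely on it. Members were sampled more deeply in the TAK-981 libraries, with medians of 13515 and 13306 UMIs per cell, than in the vehicle libraries, with 5672 and 5952. A doublet score called 0 and 0 members in the TAK-981 libraries and 8 and 1 members in the vehicle libraries. No member barcode occurred in 2 libraries, and among all cells any 2 libraries shared 1 to 4 barcodes. Intervals on counts and shares below cover counting error only.

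**Figure D1:**
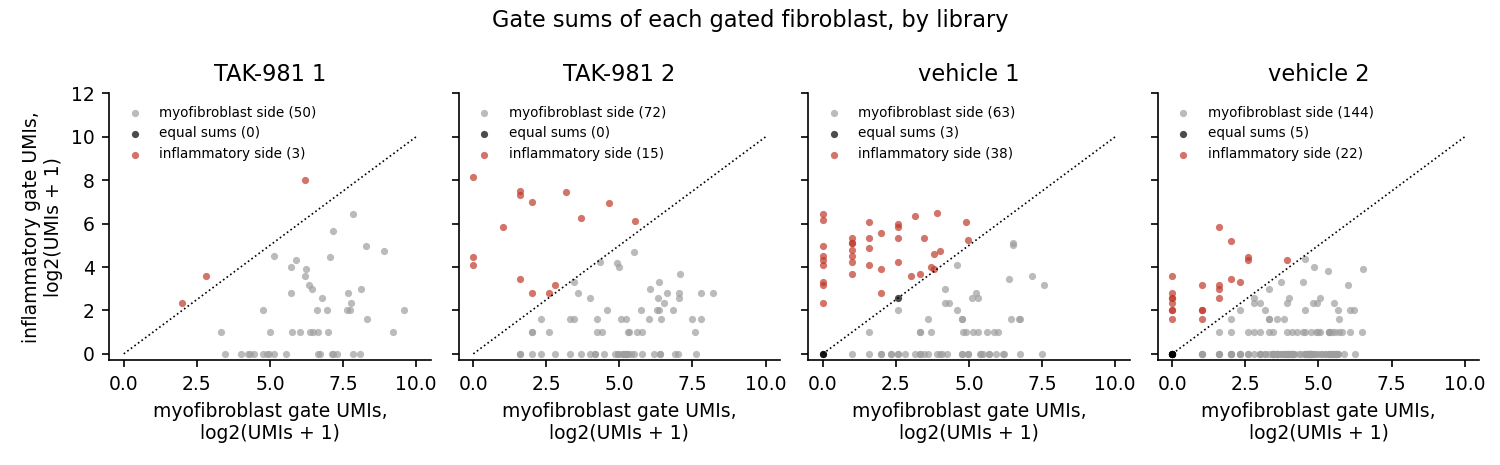
Each point is a gated fibroblast, with the summed UMIs of the 6 myofibroblast gate genes on the x axis and of the 6 inflammatory gate genes on the y axis, both as log2(UMIs + 1), in 1 panel per library. Red points above the dotted line of equal sums are the inflammatory side (3 and 15 cells in TAK-981, 38 and 22 in vehicle), and grey points are the myofibroblast side.

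The label of inflammatory-type fibroblasts held only in part. Col1a2, a chain of type I collagen, had a UMI in all 78 members, and C3, the central complement component, in 75. Pdgfra, the platelet-derived growth factor receptor of most tissue fibroblasts, had a UMI in 50. The matrix protein Dpt was found in 38 members, and the chemokine Cxcl12 and the plasminogen-binding protein Clec3b in 33 each. Among macrophages of the same libraries, which should lack Dpt, 0 to 0.352% of cells had a Dpt UMI at median depths of 3536 to 9142 UMIs, and C3 was found in 7.06 to 33.2%. C3 alone held 90% or more of the inflammatory gate UMIs in 22 members, 12 of them among the 22 members of vehicle library 2. Counted without C3, only 42 of the 78 cells met the rule, namely 0 and 9 in TAK-981 and 26 and 7 in vehicle. Leaving out any other single gate gene kept 72 to 78 members.

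A second set of markers divided the members. At least 1 UMI of Msln, Upk3b, Lrrn4, Nkain4 or Upk1b, genes known from mesothelial cells, the lining of the abdominal cavity and its organs, was found in 28 members. Dpt and these markers occurred together in only 2 members, while 36 members had Dpt alone, 26 a mesothelial marker alone and 14 neither. The mesothelial-marked members numbered 0 of 3 and 3 of 15 in TAK-981, against 13 of 38 and 12 of 22 in vehicle. Their share per library was 10.0 ± 14.1% in TAK-981 and 44.4 ± 14.4% in vehicle (SD, n = 2 each), a difference of -34.4 percentage points. The permutation test over libraries, exact and two-sided, gave p = 0.33, and 2 libraries a group allow no lower value. Wt1, a transcription factor of mesothelial cells and some fibroblasts, was found in 59 members. The whole mesothelial list of 8 genes summed to 248 and 588 CPM (UMIs of a gene scaled to the same library total, not adjusted further) in the TAK-981 members and to 2219 and 6808 CPM in the vehicle members. The protease inhibitor Slpi alone made up 0 and 211 CPM of these sums in TAK-981 and 1135 and 6060 CPM in vehicle. T and NK cell markers were at 0 in all 4 libraries.

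**Figure D2:**
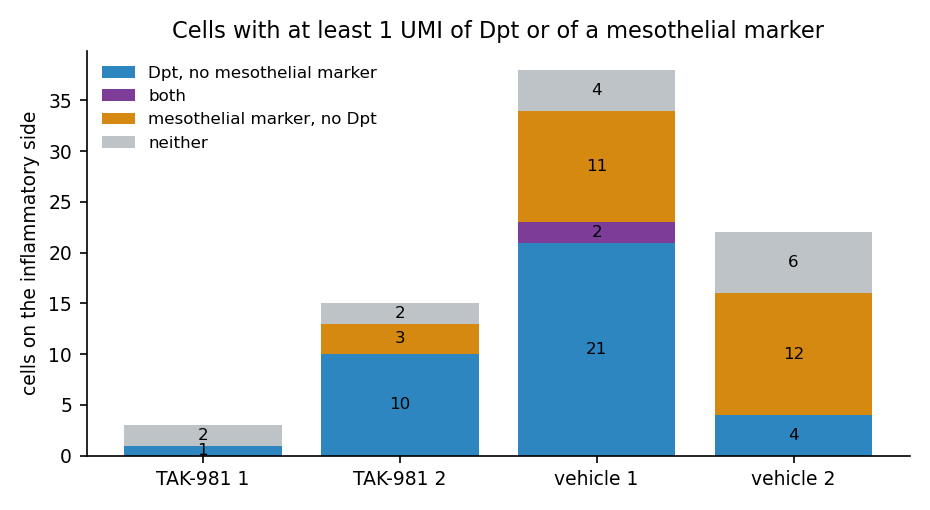
Bars count the members of each library by whether they had at least 1 UMI of Dpt, of a mesothelial marker (Msln, Upk3b, Lrrn4, Nkain4 or Upk1b), of both or of neither. The mesothelial-marked cells number 0 and 3 in the TAK-981 libraries and 13 and 12 in the vehicle libraries.

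Near the line of equal sums, 4 members had an inflammatory sum only 1 UMI above the myofibroblast sum and 15 members were within 3 UMIs of it. Just outside, 8 fibroblasts had equal sums and 11 had an inflammatory sum 1 UMI lower. The median difference of sums among members was 5 and 55 UMIs in TAK-981, against 21.5 and 5 UMIs in vehicle.

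Inflammatory-side fibroblasts made up 0.177% (exact 95% binomial interval 0.0365 to 0.515%) and 0.495% (0.277 to 0.815%) of cells in the TAK-981 libraries, against 1.15% (0.812 to 1.57%) and 0.632% (0.396 to 0.955%) in the vehicle libraries. Both TAK-981 libraries were below both vehicle libraries. The means were 0.336 ± 0.225% in TAK-981 and 0.889 ± 0.363% in vehicle (SD, n = 2 each), and the difference of -0.553 percentage points had p = 0.33 by the same exact permutation test. Without vehicle library 1 the difference was -0.296 percentage points. As a share of gated fibroblasts the members were 5.66% and 17.2% in TAK-981, against 36.5% and 12.9% in vehicle, and here the groups overlapped. That difference, -13.3 percentage points, had p = 0.667 by the exact permutation test and was -1.41 percentage points without vehicle library 1. With every cell thinned to 1000 UMIs before the rule, the shares of gated fibroblasts were 1.96% and 19.7% in TAK-981 and 41.7% and 11.8% in vehicle.

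The levels of the gate genes themselves varied by library. CPM scaled by trimmed mean of M values (TMM), the unit of all treatment values below, gave C3 at 5060 and 4218 in the TAK-981 members, against 3398 and 1501 in the vehicle members. Ly6c1, a surface protein of some fibroblasts and of endothelial cells, was at 506 and 1762 CPM in TAK-981, against 245 and 84.7 CPM in vehicle. For both genes every TAK-981 library was above every vehicle library. Dpt was at 92.0 and 300.6 CPM in TAK-981, against 1065 and 69.3 CPM in vehicle, and Clec3b at 276 and 181 CPM, against 598 and 30.8 CPM. For Dpt and Clec3b the groups overlapped, with vehicle library 1 the highest and vehicle library 2 the lowest. Pdgfra was at 115 and 212 CPM in TAK-981, against 290 and 331 CPM in vehicle. Col1a1 was at 5083 and 5835 CPM in TAK-981, against 5464 and 3140 CPM in vehicle.

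Set against the myofibroblast side of the same libraries, the members had more acute-phase and complement RNA. The gate separated the sides by expression, so these values are a description with no test, in CPM not scaled further. Saa3, an acute-phase apolipoprotein, was at 6513, 7730, 1250 and 4365 CPM in the inflammatory-side cells of TAK-981 libraries 1 and 2 and vehicle libraries 1 and 2, and on the myofibroblast side at 211, 252, 15.0 and 67.9 CPM in that order. The smallest log2 ratio of the 4 libraries, taken with 10 CPM added to both values, was 4.88. In vehicle library 1, however, 287 of the 294 Saa3 UMIs lay in 4 members called doublets. The other 30 members of that library had 43.4 CPM, against 17.1 CPM on the myofibroblast side without doublets, a log2 ratio of 0.98, so the high level there rests on those 4 cells. Split by the markers above, after the values were seen, vehicle members with Dpt alone had 44.2 and 0 CPM of Saa3. Vehicle members with a mesothelial marker alone had 4306 and 6079 CPM, and those with neither 371 and 1806 CPM. TAK-981 members with Dpt alone had 11313 and 7761 CPM, and those with neither 58.1 and 322 CPM. Cfb, the factor B of the alternative complement pathway, had a smallest ratio of 2.77. The growth factor Igf1 had 2.57 and the haemoglobin-binding acute-phase protein Hp 2.51. Further down the same order came Steap4, Gas6, Apoe, the pentraxin Ptx3, the adhesion molecule Icam1, the retinaldehyde dehydrogenase Aldh1a1, Wt1 and Cd34, with smallest ratios of 1.77 to 2.49. Without doublets Cfb had a smallest ratio of 2.74, Igf1 of 2.54 and Hp of 2.50.

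On the low side, the pericyte gene Rgs5 had 0 UMIs in the members of all 4 libraries, against 61.6 to 369 CPM on the myofibroblast side. The secreted phosphoprotein Spp1 was at 297, 1137, 1968 and 185 CPM in the inflammatory-side cells, against 13638, 14322, 11443 and 4474 CPM on the myofibroblast side in the same library order. Mcam, Thbs2, Col8a1, the serine protease Fap, the Notch target Heyl, Nes, Sema7a, Slc20a1 and Cbfa2t3 were also lower in all 4 libraries. Lists were counted over genes outside the gate with at least 20 CPM. Of 23 inflammatory fibroblast genes, 12 were higher on the inflammatory side in all 4 libraries and 4 were lower. Of 21 adventitial fibroblast genes, 7 were higher and 2 lower. Of 24 myofibroblast genes, 1 was higher and 15 were lower. Over all 6465 genes, 672 were higher and 1016 lower in all 4 libraries. The complement list had a median log2 ratio of 1.90 over 11 genes, of which 5 were higher and 2 lower in all 4 libraries. The cell cycle list had a median of -0.79 over 24 genes, of which 0 were higher and 3 lower. The median over all genes was -0.13.

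Between treatments, the members of TAK-981 tumours had more RNA of 10 genes, among them Ifit3 and Cxcl10 of the interferon lists, and less of a pair of mesothelial markers. Counts were summed over the members of each library and tested with edgeR's quasi-likelihood test, with Benjamini-Hochberg adjustment over all genes tested and a threshold of 0.05. Outside the gate, 2529 genes were tested. In TAK-981 10 of them rose, 0.395% of those tested, and 2 fell, 0.0791%. The genes that rose were Ifit3b, Ptn, Ifit3, H2-Q4, Il1b, Mmp3, Hsd11b1, Lcn2, Cxcl10 and Hp, and those that fell were Lrrn4 and Upk3b. Both counts went to 0 without TAK-981 library 2, without the cells called doublets and with an inflammatory sum required to be at least 2 UMIs above, with 235, 267 and 298 genes then at an unadjusted p under 0.05. Without TAK-981 library 1 there were 89 higher and 37 lower, without vehicle library 1 there were 99 and 110, and without vehicle library 2 there were 47 and 52, while DESeq2 on the same sums gave 19 and 28.

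**Figure D3:**
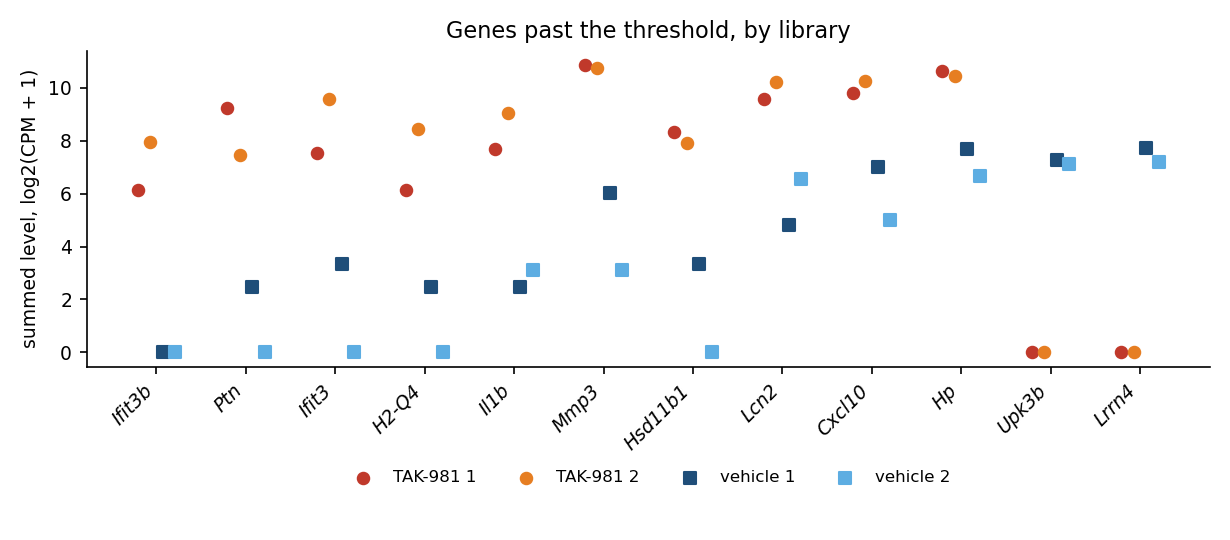
Points show the summed level of the 12 genes past the threshold in each library, as log2(CPM + 1) after TMM scaling, with circles for the TAK-981 and squares for the vehicle libraries. For all 12 genes the 2 groups of libraries do not overlap, and Upk3b and Lrrn4 sit at 0 in both TAK-981 libraries.

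The promoters of the 3 called genes that carry an interferon-stimulated response element are shown because interferon-stimulated genes were among those that rose. The windows run from 250 bases before to 50 bases after the start of transcription, 5′ to 3′ on the strand of the gene, from RefSeq on build GRCm38.p6. Capitals mark each match to the motif, which is GAAA, any 2 bases and GAAA again, or on the other strand TTTC, any 2 bases and TTTC. The window of Ifit3 is chr19:34583279-34583578 on the plus strand, that of Ifit3b chr19:34607707-34608006 on the plus strand and that of Cxcl10 chr5:92348840-92349139 on the minus strand.
Ifit3: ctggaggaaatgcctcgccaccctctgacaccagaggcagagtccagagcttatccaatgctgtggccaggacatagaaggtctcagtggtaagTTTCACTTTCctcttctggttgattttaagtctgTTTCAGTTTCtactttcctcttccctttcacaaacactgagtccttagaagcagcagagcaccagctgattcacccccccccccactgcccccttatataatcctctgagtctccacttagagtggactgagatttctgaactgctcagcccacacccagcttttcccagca
Ifit3b: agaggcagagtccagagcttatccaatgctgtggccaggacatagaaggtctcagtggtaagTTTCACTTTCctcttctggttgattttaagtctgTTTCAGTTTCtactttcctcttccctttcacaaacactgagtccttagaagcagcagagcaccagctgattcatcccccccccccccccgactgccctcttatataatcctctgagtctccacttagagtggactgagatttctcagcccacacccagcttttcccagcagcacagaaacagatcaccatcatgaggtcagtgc
Cxcl10: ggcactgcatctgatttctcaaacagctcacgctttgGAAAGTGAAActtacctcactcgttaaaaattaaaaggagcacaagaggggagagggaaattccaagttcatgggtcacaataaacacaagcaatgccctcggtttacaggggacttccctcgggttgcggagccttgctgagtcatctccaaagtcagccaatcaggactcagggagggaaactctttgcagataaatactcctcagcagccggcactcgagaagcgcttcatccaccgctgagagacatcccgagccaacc
Ifit3 and Ifit3b, neighbouring copies of 1 gene, share an unbroken run of 169 bases that holds both motifs. Their matches begin 156 and 122 bases before the start for Ifit3, 188 and 154 bases before it for Ifit3b and 213 bases before it for Cxcl10. The motif was found in 3 of the 11 called genes that had a window, and in 11 of 21 tested genes of the type I interferon list with one. It was in 4.85% of the 2000 tested genes with a window and in 3.99% of all 27025 genes with one. A match is a description of the letters, and binding was not measured.

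Type I interferon genes were higher as a list in TAK-981 members, although few passed the test. Ifit3, an antiviral protein that binds viral RNA complexes with its partner proteins, was at 184 and 757 CPM in the TAK-981 members, against 9.06 and 0 CPM in the vehicle members. Its UMIs numbered 8 and 146 in TAK-981, against 2 and 0 in vehicle. They were found in 1 of 3 and 13 of 15 cells in TAK-981, against 1 of 38 and 0 of 22 in vehicle. With every member thinned to 1000 UMIs, 9 TAK-981 cells and 1 vehicle cell kept an Ifit3 UMI. The log2 fold change was 6.29 (SE 0.96, adjusted p = 0.022, edgeR), and the ratio of pooled counts was 131 with a counting interval of 35.7 to 1092. Ifit3b was at 69.0 and 249 CPM in TAK-981, against 0 CPM in both vehicle libraries (adjusted p = 0.030, edgeR). Set against 3 counts over the vehicle group, it was at least 28.9-fold higher. Reads of such near-identical copies may be divided between them by the counting, so the 2 genes are not independent.

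The type I interferon list counted 50 genes, of which 48 were in the files and 27 passed the filter on low counts and were tested. Of these 2 rose, none fell, and 18 had both TAK-981 libraries above both vehicle libraries, against a background of 21.2% of all tested genes. Their median log2 fold change was 1.98, against 0.01 over all tested genes. Bst2, a surface protein that tethers budding virus, was at 2323 and 2239 CPM in TAK-981, against 353 and 192 CPM in vehicle (log2 3.05, SE 0.59, adjusted p = 0.051, edgeR), which missed the threshold. It was detected in all 18 TAK-981 members and in 33 of 60 vehicle members. Irf7, the transcription factor that amplifies interferon production, was at 299 and 1010 CPM in TAK-981, against 104 and 23.1 CPM in vehicle, with an adjusted p of 0.077 from edgeR. Ifi35 was at 69.0 and 244 CPM in TAK-981, against 13.6 and 15.4 CPM in vehicle (adjusted p = 0.074, edgeR). For these 3 genes the libraries did not overlap.

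The interferon-gamma list was less uniform. Of 28 genes 10 were tested, 1 rose, none fell, and the median log2 fold change was 2.35. Both TAK-981 libraries were above both vehicle libraries for 5 of the 10 and below them for 2, against 21.2% and 20.9% of all tested genes. Those 2, singled out after their values were seen, were the transcription factor Irf1, with a log2 fold change of -0.40, and Icam1, with -0.52, and neither passed. The gene that rose was Cxcl10, a chemokine that draws T cells through CXCR3, at 897 and 1213 CPM in TAK-981, against 127 and 30.8 CPM in vehicle (log2 3.67, SE 0.67, adjusted p = 0.043, edgeR). It was found in 1 of 3 and 14 of 15 TAK-981 members, against 8 of 38 and 3 of 22 vehicle members. On the myofibroblast side 6.0% and 16.7% of cells had a Cxcl10 UMI in TAK-981, against 7.94% and 3.47% in vehicle, at median depths of 18185 and 13341 UMIs, against 8414 and 4623 UMIs. Cxcl9, a chemokine with the same receptor, was at 529 and 658 CPM in TAK-981, against 122 and 0 CPM in vehicle, and missed the threshold (adjusted p = 0.136, edgeR). The immunity-related GTPase Igtp was at 92.0 and 259 CPM in TAK-981, against 13.6 and 0 CPM in vehicle (adjusted p = 0.051, edgeR).

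MHC class I genes and the peptide-loading machinery also had positive values throughout. All 17 tested genes of 24 had a positive log2 fold change, with a median of 2.12, and 1 rose. For 12 of the 17 both TAK-981 libraries were above both vehicle libraries, against 21.2% of all tested genes. H2-Q4, a non-classical class I gene, was at 69.0 and 347 CPM in TAK-981, against 4.53 and 0 CPM in vehicle (log2 6.02, SE 1.04, adjusted p = 0.031, edgeR). Its UMIs were in 1 of 3 and 14 of 15 TAK-981 members, against 1 of 38 and 0 of 22 vehicle members, and class I genes resemble each other closely enough that their reads may be misassigned. The classical class I gene H2-D1 was at 1265 and 3166 CPM in TAK-981, against 471 and 323 CPM in vehicle, with an adjusted p of 0.107 from edgeR. H2-T23 was at 345 and 814 CPM in TAK-981, against 63.4 and 92.4 CPM in vehicle (adjusted p = 0.063, edgeR). The peptide transporter Tap1 was at 69.0 and 192 CPM in TAK-981, against 31.7 and 23.1 CPM in vehicle (adjusted p = 0.115, edgeR).

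Interferon-stimulated genes also rose outside the inflammatory side. On the myofibroblast side of the same libraries 7742 genes outside the gate were tested, 12 rose (0.155%) and 83 fell (1.07%). Ifit3 and Cxcl10 rose on both sides, with a log2 fold change on the myofibroblast side of 3.13 for Ifit3 and 2.45 for Cxcl10. Over the 27 type I interferon genes tested on both sides the median log2 fold change was 1.98 on the inflammatory side and 0.59 on the myofibroblast side. For the 17 class I genes the medians were 2.12 and 0.90 in that order. Both sides come from the same mice. Of 6059 genes tested for a difference of the treatment effect between sides, 6 were more positive (0.099%) and 3 more negative (0.0495%) on the inflammatory side. The difference of the treatment effect between sides did not pass the threshold for Ifit3 (adjusted p = 0.917), H2-Q4 (adjusted p = 0.144) or Cxcl10 (adjusted p = 1.00) in edgeR's test of the side by treatment term.

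**Figure D4:**
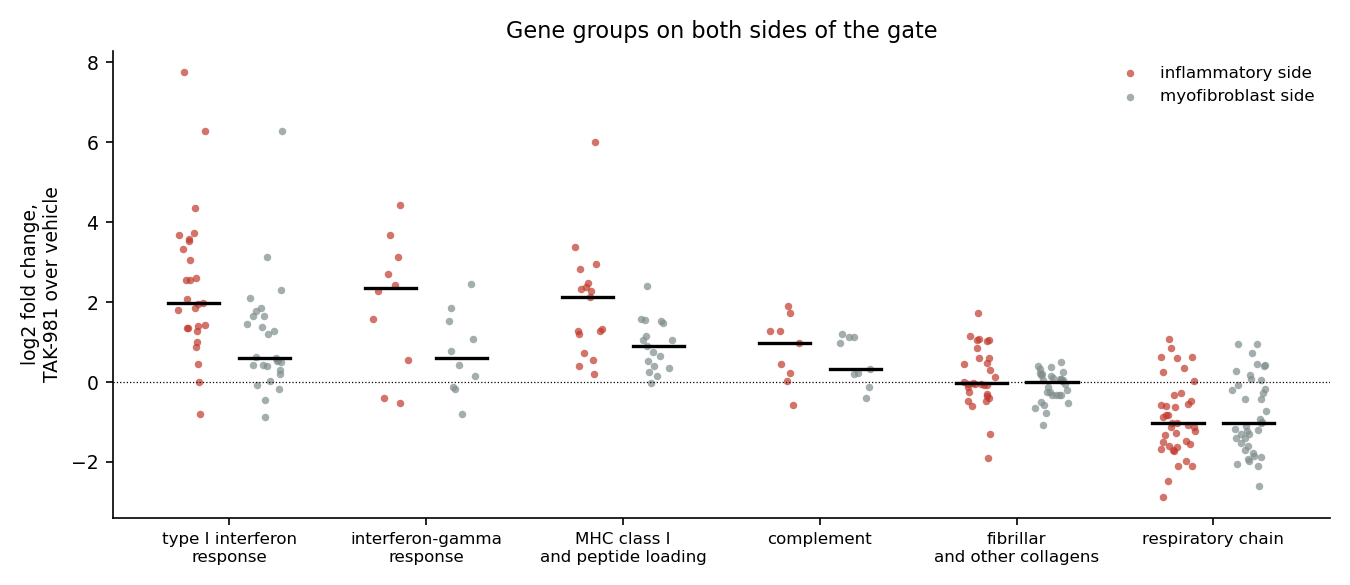
Points are genes tested on both sides of the gate, with the log2 fold change of TAK-981 over vehicle on the y axis, red for the inflammatory and grey for the myofibroblast side, and bars mark medians. For the type I interferon list the medians are 1.98 and 0.59, for MHC class I 2.12 and 0.90, and for the respiratory chain -1.03 and -1.02.

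Outside the interferon and class I lists Mmp3, Hp, Lcn2, Hsd11b1, Ptn and Il1b rose. Mmp3, the matrix protease stromelysin, was at 1863 and 1720 CPM in TAK-981, against 63.4 and 7.70 CPM in vehicle (log2 5.49, SE 0.78, adjusted p = 0.022, edgeR). It had UMIs in 2 of 3 and 5 of 15 TAK-981 members, against 3 of 38 and 1 of 22 vehicle members. In TAK-981 library 2, 2 cells held 139 and 137 of its 332 UMIs, and in TAK-981 library 1, 1 cell held 80 of 81. The level was therefore high in a minority of cells. No macrophage of any library had an Mmp3 UMI.

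Hp was at 1610 and 1384 CPM in TAK-981, against 204 and 100.1 CPM in vehicle (log2 3.26, SE 0.58, adjusted p = 0.039, edgeR), in 11 of 18 and 17 of 60 members. Lcn2, an iron-sequestering acute-phase protein, was at 759 and 1197 CPM in TAK-981, against 27.2 and 92.4 CPM in vehicle (log2 4.11, adjusted p = 0.030, edgeR). Of its 231 UMIs in TAK-981 library 2, 142 came from 1 cell. Hsd11b1, the enzyme that regenerates active glucocorticoid, was at 322 and 244 CPM in TAK-981, against 9.06 and 0 CPM in vehicle (log2 5.43, adjusted p = 0.022, edgeR), in 12 of 18 and 2 of 60 members. The growth factor Ptn was at 598 and 176 CPM in TAK-981, against 4.53 and 0 CPM in vehicle (log2 6.61, adjusted p = 0.022, edgeR). In each TAK-981 library 1 cell held most of the Ptn UMIs, 23 of 26 and 21 of 34. That cell of TAK-981 library 1 also held 70 Hp, 32 Lcn2 and 13 Hsd11b1 UMIs. The other members of that library had 0 or 1 UMI of each of these 3 genes.

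Il1b, the cytokine interleukin-1 beta, passed the threshold at 207 and 523 CPM in TAK-981, against 4.53 and 7.70 CPM in vehicle (log2 5.87, SE 0.79, adjusted p = 0.022, edgeR). Its UMIs came from 1 cell in every library, with 9 and 101 UMIs in TAK-981 and 1 and 1 in vehicle. Both TAK-981 cells had an inflammatory sum only 1 UMI above the myofibroblast sum. The cell with 101 Il1b UMIs had UMIs of 7 of the 8 neutrophil markers, among them 28 of S100a9, 23 of G0s2 and 5 of Csf3r, and 64 UMIs of Srgn, beside 17 UMIs of Col1a1, 19 of Col1a2 and 21 of Col3a1. The cell with 9 Il1b UMIs had UMIs of 6 of the 10 macrophage or monocyte markers, with 3 of Lyz2 and 3 of C1qa, and 9 each of Cd74 and H2-Aa. Over the whole lists, neutrophil markers summed to 124 and 677 CPM in TAK-981 and 68.0 and 92.6 CPM in vehicle, with Cxcr2 at 0 in 3 of the 4 libraries. Macrophage or monocyte markers summed to 4284 and 1403 CPM in TAK-981 and 531 and 1403 CPM in vehicle, with Adgre1 at 0 in all 4. Apoe alone made up 3814 and 1292 CPM of these sums in TAK-981 and 459 and 1374 CPM in vehicle. Il1b was found in 60.1 to 88.6% of macrophages of the 4 libraries. All Il1b UMIs of the TAK-981 members thus lay in cells that are left out when the inflammatory sum must be at least 2 UMIs above. The identity of these cells was not tested.

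**Figure D5:**
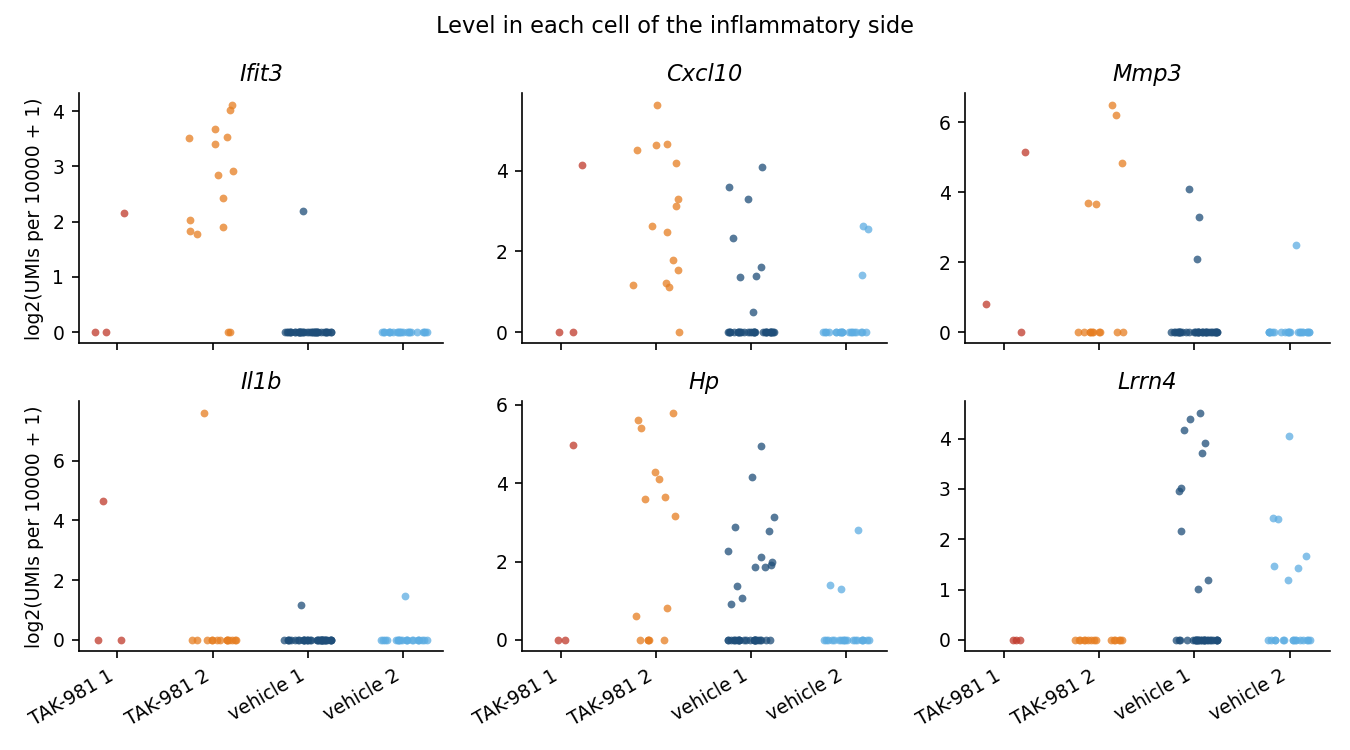
Each point is a member, with log2(UMIs per 10000 + 1) of a gene on the y axis and the library on the x axis. Ifit3 and Cxcl10 are above 0 in most members of TAK-981 library 2, Il1b in 1 member of each library, and Lrrn4 only in vehicle members.

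Fewer genes fell. Lrrn4 and Upk3b, membrane proteins of mesothelial cells, had 0 UMIs in both TAK-981 libraries. Lrrn4 was at 208 and 146 CPM in vehicle and Upk3b at 154 and 139 CPM, and both fell in TAK-981 (adjusted p = 0.030 each, edgeR). Against 3 counts over the TAK-981 group, Lrrn4 was at least 12.7-fold and Upk3b at least 10.2-fold lower. The list of 8 mesothelial markers had 6 tested members, of which these 2 fell. Msln was at 0 and 5.18 CPM in TAK-981, against 86.1 and 115 CPM in vehicle (adjusted p = 0.077, edgeR), and Upk1b at 0 and 10.4 CPM, against 86.1 and 100.1 CPM. Slpi, a protease inhibitor of epithelial linings, was at 0 and 197 CPM in TAK-981, against 1210 and 6550 CPM in vehicle (adjusted p = 0.077, edgeR). In vehicle library 1, 203 of its 267 UMIs lay in members called doublets. The mesothelial-marked members, 0 and 3 in TAK-981 against 13 and 12 in vehicle, were themselves marked by UMIs of Lrrn4, Upk3b, Msln, Upk1b or Nkain4. Their smaller number is therefore no separate observation from the lower values of these genes. Fewer such cells and less RNA per cell cannot be told apart.

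Within members that had Dpt and no mesothelial marker, the interferon values were also higher in TAK-981. That subset, chosen after the values were seen, held 1 and 10 cells in TAK-981 and 21 and 4 cells in vehicle, and is given as pooled CPM with no test. Ifit3 was at 824 CPM in 9 of 11 TAK-981 cells, against 0 of 25 vehicle cells. Bst2 was at 2773 CPM in 11 of 11 TAK-981 cells, against 150 CPM in 9 of 25 vehicle cells. Cxcl10 was at 1273 CPM in 10 of 11 TAK-981 cells, against 22.6 CPM in 3 of 25 vehicle cells, and Hp at 2250 CPM in 10 of 11, against 323 CPM in 12 of 25. Saa3 was at 8312 CPM in 9 of 11 TAK-981 cells, against 37.6 CPM in 2 of 25 vehicle cells. Among mesothelial-marked members without Dpt, Saa3 was at 9184 CPM in 3 of 3 TAK-981 cells and 5347 CPM in 11 of 23 vehicle cells. Ifit3 was also higher there, at 557 CPM in TAK-981, against 12.7 CPM in vehicle. So were Bst2, at 2118 CPM, against 425 CPM, and Cxcl10, at 1806 CPM, against 108 CPM. Hp was lower, at 22.3 CPM, against 76.2 CPM. Members with neither marker, 4 in TAK-981 and 10 in vehicle, did not all follow. Among them Saa3 was at 151 CPM in TAK-981, against 1143 CPM in vehicle, Cxcl10 at 75.3 CPM, against 209.5 CPM, and Irf7 at 37.7 CPM, against 76.2 CPM. Ifit3 was found in 2 of these 4 TAK-981 cells, against 0 of 10 vehicle cells, and Bst2 was at 904 CPM, against 133 CPM. Over all members Saa3 was at 6049 and 7224 CPM in TAK-981, against 1332 and 4718 CPM in vehicle, and missed the threshold (log2 1.14, SE 0.76, adjusted p = 0.620, edgeR).

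For genes known from the inflammatory and myofibroblast programmes the counts were low, as they were over all tested genes, of which 0.395% rose and 0.0791% fell. Of 27 inflammatory fibroblast genes outside the gate 20 were tested, Hp rose, none fell, and the median log2 fold change was -0.23. Both TAK-981 libraries were above both vehicle libraries for 4 of the 20 and below them for 4, against 21.2% and 20.9% of all tested genes. The chemokine Cxcl14 was at 2553 and 383 CPM in TAK-981, against 258 and 84.7 CPM in vehicle (adjusted p = 0.137, edgeR). The eotaxin Ccl11 was at 138 and 420 CPM in TAK-981, against 68.0 and 0 CPM in vehicle (adjusted p = 0.154, edgeR). The interleukin-1 receptor Il1r1 was at 161 and 161 CPM in TAK-981, against 313 and 277 CPM in vehicle (adjusted p = 0.521, edgeR). Of 25 adventitial fibroblast genes 16 were tested and none passed, with a median of -0.30, and at an unadjusted p under 0.05 1 was higher and 3 were lower. The microfibril protein Fbn1 was at 644 and 326 CPM in TAK-981, against 1418 and 947 CPM in vehicle (adjusted p = 0.363, edgeR). Igfbp6 was at 253 and 275 CPM in TAK-981, against 526 and 600.3 CPM in vehicle (adjusted p = 0.401, edgeR). Col14a1 was at 46.0 and 72.5 CPM in TAK-981, against 417 and 53.9 CPM in vehicle, with overlapping groups, and its log2 fold change of -1.90 was 0.15 without vehicle library 1. In the same list Ly6a, which encodes the stem cell antigen Sca-1 and responds to interferon in mice, was at 3956 and 7327 CPM in TAK-981, against 1078 and 316 CPM in vehicle (adjusted p = 0.110, edgeR). Of 30 myofibroblast genes outside the gate 18 were tested and none passed, with a median of -0.19.

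Among matrix and complement genes only Mmp3 passed the test. None of 30 tested collagen genes passed and their median log2 fold change was -0.03. Of 37 matrix glycoprotein and proteoglycan genes none passed. Sparcl1 was at 138 and 373 CPM in TAK-981, against 45.3 and 30.8 CPM in vehicle (adjusted p = 0.077, edgeR), and elastin, Eln, at 92.0 and 150 CPM, against 421 and 477 CPM (adjusted p = 0.137, edgeR). Among 20 proteases and inhibitors Mmp3 rose, and Serpine2 was at 529 and 544 CPM in TAK-981, against 118 and 23.1 CPM in vehicle (adjusted p = 0.077, edgeR). Of 10 complement genes none passed, with a median of 0.72. Cfb was at 1380 and 1498 CPM in TAK-981, against 526 and 339 CPM in vehicle, and C2 at 322 and 337 CPM, against 122 and 46.2 CPM. Of 10 tested SUMO pathway genes none passed, and their median was 0.12. Beside each of these counts of 0, all tested genes had 126 higher and 183 lower values at an unadjusted p under 0.05 in edgeR.

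Short transcripts had lower values in TAK-981 members. No gene of the respiratory chain passed the threshold among 39 tested, yet 27 had both TAK-981 libraries below both vehicle libraries, against a background of 20.9%, and the median log2 fold change was -1.03. Cox7c, a small subunit of cytochrome oxidase, was at 115 and 104 CPM in TAK-981, against 652 and 931 CPM in vehicle (adjusted p = 0.051, edgeR). Bola2, Crip1, Fmo2, Dpm3 and Snrpg were the other genes of lowest p on this side, with adjusted p of 0.051 to 0.077 in edgeR. On the myofibroblast side the respiratory chain median was -1.0 and 12 of 40 genes fell. Transcripts under 800 nt made up 4.55% of the 2529 tested genes, 29.5% of the 183 genes lower at an unadjusted p under 0.05 and 1.59% of the 126 higher ones, and their median log2 fold change was -1.24. Depth per cell moved with treatment as well, and the part of transcript length and depth in these values was not tested.

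The metallothioneins Mt1 and Mt2, which bind zinc and copper, were lower in TAK-981 members without passing the threshold. Mt2 was at 299 and 446 CPM in TAK-981, against 1273 and 2378 CPM in vehicle (adjusted p = 0.110, edgeR). Mt1 was at 575 and 1254 CPM in TAK-981, against 2306 and 9313 CPM in vehicle (adjusted p = 0.163, edgeR). For both genes the libraries did not overlap. The proliferation genes Mki67 and Top2a had UMIs in 2 of 18 TAK-981 members each. In vehicle they had UMIs in 7 of 60 members for Mki67 and 6 of 60 for Top2a, a similar share, and neither gene passed.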

How the data were processed

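Single-cell 3′ RNA libraries were made from 4 dissociated tumours, 2 from TAK-981 and 2 from vehicle mice. Dead cells were removed where viability was low, per the labels' protocols. The deposited values are raw UMI counts per gene and barcode, which the authors obtained from Cell Ranger 6.1.2 on build mm10, per the submitters' processing notes. Of 16890 barcodes, 11527 passed the limits given above. Total counts per library ran from 24411656 to 63898758. No column of the files was left unused.

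Counts of the members were summed per library and tested with edgeR 4.0.16 in R 4.3.3 (filterByExpr, TMM, quasi-likelihood test, Benjamini-Hochberg adjustment over all genes tested, threshold 0.05). The difference between sides used 1 model with a library term. DESeq2 1.42.0 was an alternative. Doublets were scored with scanpy 1.11.5 and kept. Shares were compared by exact permutation tests with exact Clopper-Pearson intervals. The scripts were tested on simulated data. Each library is 1 mouse, and the members, gene lists and tests were chosen with earlier results of these data known. Of genes outside the gate, the text names up to 12 per direction past the threshold, or the 8 of lowest p where under 5 passed, up to 4 of lowest p per list, 6 per direction for the difference between sides and 12 per direction against the myofibroblast side. Some genes that this rule names are not reported here. The subsets by Dpt and mesothelial markers were added after the values were seen.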

Additional observations from a re-analysis of the deposited data

Results flagged for a closer look

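The TAK-981 effect differed between the inflammatory and the myofibroblast side for 9 of 6059 genes outside the gate in edgeR's side by treatment test, 6 of them more positive (0.099%) and 3 more negative (0.0495%) on the inflammatory side. Without the library term no gene passed, with 194 at an unadjusted p under 0.05, and without the cells called doublets only Ptn passed (adjusted p = 0.049, edgeR).

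Il1b had the lowest adjusted p (0.000463, edgeR), with a difference of 6.34 on the log2 scale (SE 0.81). It was at 207 and 523 CPM in TAK-981 and 4.53 and 7.70 CPM in vehicle on the inflammatory side, and at 14.7 and 69.2 CPM in TAK-981 and 79.8 and 25.8 CPM in vehicle on the myofibroblast side. Srgn, a proteoglycan of blood cell granules, differed by 3.56 and Cd74, the MHC class II invariant chain, by 4.00. The cell with 101 Il1b UMIs held 64 of the Srgn UMIs, and the cell with 9 Il1b UMIs held 9 Cd74 UMIs. Another member, in TAK-981 library 2 and with no Il1b UMI, held 14 Cd74 UMIs. The part of these cells in the differences was not tested. Without vehicle library 1 the adjusted p was 0.647 for Cd74 and 0.487 for Srgn, and without TAK-981 library 2 it was 0.158 for Srgn.

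Mmp3 differed by 5.12 and Ptn by 5.67. Without vehicle library 2 the Mmp3 difference was 3.04 (adjusted p = 0.480, edgeR), and without vehicle library 1 it was 8.21 for Mmp3 and 9.16 for Ptn. Mmp3 was at 47.9 and 12 CPM in TAK-981 and 8.19 and 37.3 CPM in vehicle on the myofibroblast side, where Ptn was at 169 and 105 CPM in TAK-981 and 75.7 and 60.3 CPM in vehicle. Prg4, the lubricating proteoglycan, differed by 7.27, with 0 and 114 CPM in TAK-981 and 9.06 and 231 CPM in vehicle on the inflammatory side and 0 CPM in 3 of the 4 libraries on the other. Single libraries decided the Prg4 value, which was -0.50 without TAK-981 library 2 and 2.54 without vehicle library 2 (adjusted p = 1.00 in both, edgeR). Slpi differed by -4.52, the fatty acid binding protein Fabp5 by -3.28 and the protease inhibitor Serpinb2 by -3.46. Serpinb2 was at 0 and 140 CPM in TAK-981 and 358 and 400.2 CPM in vehicle on the inflammatory side. In vehicle library 1, 73 of its 79 UMIs lay in 3 members called doublets, and without doublets its difference was -2.39 (adjusted p = 1.00, edgeR). Without vehicle library 2 the adjusted p was 0.184 for Serpinb2 and 0.410 for Fabp5, and without TAK-981 library 2 it was 0.064 for Fabp5. Without TAK-981 library 2 the fitted difference was -13.4 for Slpi and -10.8 for Serpinb2, with TAK-981 members then at 0 UMIs, so these fitted values are no bounds.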

How the results depend on the processing

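The main counts were 10 genes higher and 2 lower in TAK-981 members. They were 75 and 65 with no filter on low counts, 39 and 33 with a replicate block, 19 and 28 with DESeq2, and 0 to 99 and 0 to 110 with 1 library left out. Both were 0 without doublets, with an inflammatory sum at least 2 UMIs above and without mesothelial-marked cells (195 at an unadjusted p under 0.05), and 2 and 0 among cells with Dpt, Clec3b or Pi16. These last 2 choices of cells, leaving out transcripts under 800 nt, and leaving out doublets against the myofibroblast side were added after seeing the data. Genes lower numbered 4 with DESeq2's size factors in edgeR, at 2000 UMIs and at 10% mitochondrial UMIs, and 1 when thinned. After thinning only 269 genes outside the gate were tested, and 7 were higher. Of the 12 called genes only 4 were tested there, and all 4 passed. Without TMM the median of all genes shifted to 0.21. For the difference between sides, 6 more positive and 3 more negative became 0 and 0 without the library term, 1 and 0 without doublets, 3 and 0 when thinned, 8 to 32 and 9 to 16 with 1 library left out, and 1 more negative with DESeq2's size factors. Col14a1 reversed to 0.15 without vehicle library 1 and was -2.75 without vehicle library 2. The causes were not tested. The 12 called genes kept their direction in every setting in which they were tested. DESeq2 called 6 of these 12 genes and gave no adjusted p for the other 6. Differences in share ranged from -0.810 to -0.296 percentage points of cells and from -25.1 to -1.41 of fibroblasts with 1 library left out. Same-numbered libraries showed a correlation of deviations of -0.05 over 2 pairs, too few to tell whether the numbers pair the mice, and the test without the block was kept. The low number of members, 3 in TAK-981 library 1, limits all these values.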
